A study of Homo sapiens with 18 samples.

Results

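The replication and mitosis genes of HCC827 cells, 40 of the 20046 genes measured, were followed over 18 bead arrays in 6 groups of 3. The set is a list of gene names: 20 genes act in DNA replication or at entry into S phase, and 20 act in G2 or mitosis. Each was read from the Illumina probes annotated to it, and all 40 had at least 1 probe. HCC827 is a lung adenocarcinoma line with a mutant EGFR, and the series looked at the change from an epithelial to a mesenchymal state by 3 routes. The TGFB1 group received the cytokine TGFB1, for 30 days by the sample labels but at 10 ng/mL for 72 h by the series text, and its control was the parental group. The SNAIL group was infected with a pLX303 lentivirus for the transcription factor SNAIL with a V5 tag (labelled pLX303-lacZ SNAIL-V5), and its control was the pLX303-lacZ group. The shCDH1 group carried a pLKO1 hairpin against CDH1, the gene of E-cadherin, and its control was the pLKO1 non-target hairpin group, here shNT. All groups shared the same line, and whether the infected cells were pools or clones is not given in the sources used here.

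A cell copies its DNA once per cycle. In G1, CDC6 and CDT1 load the MCM2 to MCM7 helicase onto replication origins, and in S phase CDC45 and the GINS complex turn it on while PCNA, loaded by RFC, holds the polymerases on the DNA. Ribonucleotide reductase (RRM1 with RRM2) and thymidylate synthase (TYMS) make the nucleotides. E2F factors and cyclin E drive this wave of transcription, and a later wave, read through CHR and CCAAT promoter elements by the MuvB complex, NF-Y and FOXM1, supplies cyclin B with CDK1, the PLK1 and Aurora kinases, the spindle checkpoint and the motors of mitosis. TGF-beta is known to hold many epithelial cells in G1.

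The promoters of 8 members are shown so that E2F, CHR and CCAAT letters can be read beside the values. In the stretch printed, CDT1 holds E2F letters, PLK1 and MKI67 hold CHR letters, CDC6, RRM2, CENPF and CCNB1 hold CCAAT without either, and CCNE1 holds none of them. They are RefSeq sequences of build GRCh38.p14, each the 150 bases before the gene's start, read 5′ to 3′ on the gene's strand. Capitals mark the E2F letters (TTTCCCGC, TTTGGCGC, TTTCGCGC or TTTGCCGC), the CHR letters (TTTGAA or TTCGAA) and CCAAT, each on either strand. CDT1 was put in after the values were seen, as a member with E2F letters in this stretch. It took the place of RFC4, whose stretch holds none of the letters marked. Mean absolute log2 changes over the 3 routes were 0.38 for RFC4 and 0.36 for CDT1. TYMS, at 0.37, also holds E2F letters in the 150 bases before its start but was not shown. It was called higher with SNAIL and shCDH1. The members shown besides CDT1 had large mean changes over the 3 routes. The replication members shown are CDC6 at chr17:40287729-40287878 (plus strand), RRM2 at chr2:10122589-10122738 (plus strand), CDT1 at chr16:88803639-88803788 (plus strand) and CCNE1 at chr19:29811841-29811990 (plus strand).
CDC6: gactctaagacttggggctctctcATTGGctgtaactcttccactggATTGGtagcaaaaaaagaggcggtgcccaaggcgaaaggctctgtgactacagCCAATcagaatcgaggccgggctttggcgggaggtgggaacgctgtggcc
RRM2: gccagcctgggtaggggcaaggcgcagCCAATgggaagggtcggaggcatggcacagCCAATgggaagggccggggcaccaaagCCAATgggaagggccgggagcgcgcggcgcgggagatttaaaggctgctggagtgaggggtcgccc
CDT1: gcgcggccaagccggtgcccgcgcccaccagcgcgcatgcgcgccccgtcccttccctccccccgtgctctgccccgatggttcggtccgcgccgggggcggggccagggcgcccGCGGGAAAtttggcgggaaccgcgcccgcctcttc
CCNE1: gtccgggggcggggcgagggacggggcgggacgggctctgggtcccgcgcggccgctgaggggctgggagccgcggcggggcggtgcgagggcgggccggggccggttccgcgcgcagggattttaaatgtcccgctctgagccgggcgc

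The mitosis members shown are PLK1 at chr16:23678739-23678888 (plus strand), CENPF at chr1:214603045-214603194 (plus strand), MKI67 at chr10:128126424-128126573 (minus strand) and CCNB1 at chr5:69167000-69167149 (plus strand). In PLK1 the CHR letters begin 29 bases before the start, and in MKI67 the letters nearest the start, also at 29 bases, share a base with a reversed CCAAT.
PLK1: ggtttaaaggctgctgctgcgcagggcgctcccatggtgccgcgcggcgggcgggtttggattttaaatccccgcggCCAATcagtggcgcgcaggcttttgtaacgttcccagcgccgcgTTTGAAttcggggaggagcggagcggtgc
CENPF: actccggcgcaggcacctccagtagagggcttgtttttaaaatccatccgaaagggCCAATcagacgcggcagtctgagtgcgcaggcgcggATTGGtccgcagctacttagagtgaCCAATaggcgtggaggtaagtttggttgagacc
MKI67: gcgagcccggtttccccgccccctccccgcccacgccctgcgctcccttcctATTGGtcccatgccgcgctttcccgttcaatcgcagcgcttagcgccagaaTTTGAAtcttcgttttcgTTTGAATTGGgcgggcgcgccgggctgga
CCNB1: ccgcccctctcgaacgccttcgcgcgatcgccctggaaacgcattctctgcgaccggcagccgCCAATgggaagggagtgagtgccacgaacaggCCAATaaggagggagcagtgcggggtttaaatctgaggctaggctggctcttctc

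Over the 300-base windows from 250 bases before to 50 after the start, E2F letters stood in 10 of the 17 replication promoters in the table (58.8%), in 1 of 15 mitosis promoters (6.67%) and in 3.33% of 27305 promoters in all. The 1 mitosis promoter was that of CDK1. CHR letters stood in 2 of 17 replication promoters (11.8%), in 10 of 15 mitosis promoters (66.7%) and in 16.6% of all. CCAAT was found in 64.7% of the replication promoters, 86.7% of the mitosis promoters and 35.7% of all, and CHR together with CCAAT in 60.0% of the mitosis promoters against 6.58% of all. A match is a description of the letters, and CDC6 and CENPF have their E2F and CHR letters past the start, outside the stretch shown. Only these exact letters were searched, so a promoter without them may hold other forms of the elements. MCM4, MCM5, CCNE2, TTK, AURKA, TPX2, BIRC5 and UBE2C were not in the table.

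The labels were checked first. The level of CDH1, in log2 intensity, was 13.12 ± 0.03 (SD, n = 3) in lacZ and 7.50 ± 0.04 in SNAIL arrays, and 13.00 in shNT and 8.60 in shCDH1 arrays. It read 13.03 ± 0.03 in parental and 12.69 ± 0.09 in TGFB1 arrays, a much smaller fall than in the other routes. VIM, the gene of the mesenchymal filament protein vimentin, read 10.27 in parental, 13.26 in TGFB1, 10.45 in shNT and 13.35 in shCDH1 arrays, and in lacZ arrays it already stood at 12.86, against 13.35 in SNAIL arrays. The SNAI1 probe read 6.16 in SNAIL and 6.29 in lacZ arrays, both under the array-wide median of 6.82, so it gave no check of the virus, and the part of the transcript it reads was not examined. All 7 epithelial markers were above that median in at least 1 group, with EPCAM at 13.68 in lacZ and 7.85 in SNAIL arrays, as were 3 of 6 blood cell, 2 of 4 endothelial and 2 of 4 fibroblast markers. Of the blood cell markers, PTPRC had group means from 6.28 to 6.90, CD14 from 7.11 to 8.73 and CD68 from 12.31 to 12.95. The fibroblast marker LUM moved with the comparisons, from 7.07 in parental to 9.04 in TGFB1, from 6.51 in lacZ to 11.47 in SNAIL and from 6.37 in shNT to 10.08 in shCDH1 arrays, while THY1 stayed between 5.93 and 6.19. Their part in the results was not tested. Raw median intensities ran from 152.1 to 235.8, lowest on TGFB1 arrays 1 and 2, and every array correlated best with its own group. Levels below are log2 intensities after background correction and quantile normalization, and a gene is called when limma's adjusted p over all 20046 genes is under 0.05.

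Most of the 40 genes were bright. Mean levels ran from 6.57 for CCNE2 to 12.93 for MCM7 among replication members, and from 7.90 for MKI67 to 13.19 for UBE2C among mitosis members. CCNE2, a cyclin E, was the only member with a group mean below the array-wide median. Replicates were close, with a median SD within groups of 0.12 for replication and 0.10 for mitosis members, and the array number limits the precision of every value. In RNA from whole cultures, fewer cells in a phase and less RNA per cell cannot be told apart.

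**Figure D1:**
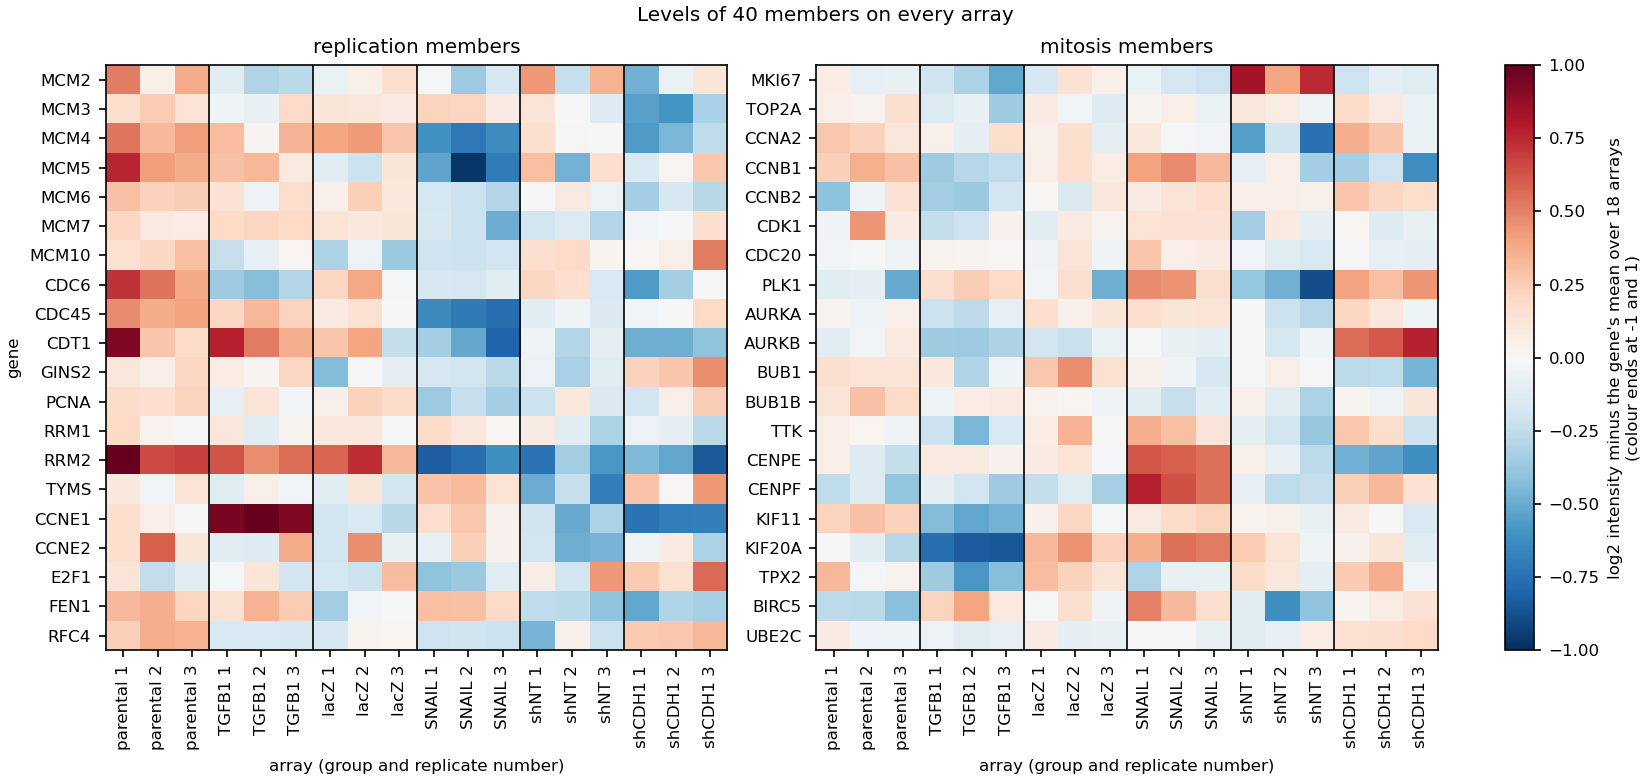
Log2 intensity of each of the 40 members on each of the 18 arrays, minus the gene's mean over the 18 arrays (red above, blue below; colours end at -1 and 1), replication members left and mitosis members right. RRM2 is high on all 9 parental, TGFB1 and lacZ arrays and low on the 9 SNAIL, shNT and shCDH1 arrays, and CCNE1 is highest on the 3 TGFB1 arrays.

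The groups ordered the 2 phases differently. Of the 20 replication members, 13 had their highest group mean in parental cells and 9 their lowest in SNAIL cells. Of the 20 mitosis members, 11 were lowest in TGFB1 cells and 8 highest in SNAIL cells. The same counts over all genes were not made. In each member's own order, at most 2 of the 5 neighbouring pairs of groups did not overlap, except in CDC45 (4) and CCNE1 (3). The median over replication members, each set against its own 18-array mean, was highest for parental arrays at 0.23 ± 0.01 (SD, n = 3), followed by TGFB1 at 0.11 ± 0.07, lacZ at 0.04 ± 0.06, shCDH1 at -0.05 ± 0.11, shNT at -0.12 ± 0.06 and SNAIL at -0.20 ± 0.02. The mitosis median was highest for SNAIL arrays at 0.12 ± 0.01, followed by lacZ at 0.06 ± 0.08, shCDH1 at 0.05 ± 0.10, parental at 0.03 ± 0.05, shNT at -0.07 ± 0.06 and TGFB1 at -0.17 ± 0.06. Neighbours in these orders overlapped in their arrays, except parental with TGFB1 and shNT with SNAIL for replication. The SNAIL group had the lowest replication mean and the highest mitosis mean, and no TGFB1 array overlapped a parental array in either phase.

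**Figure D2:**
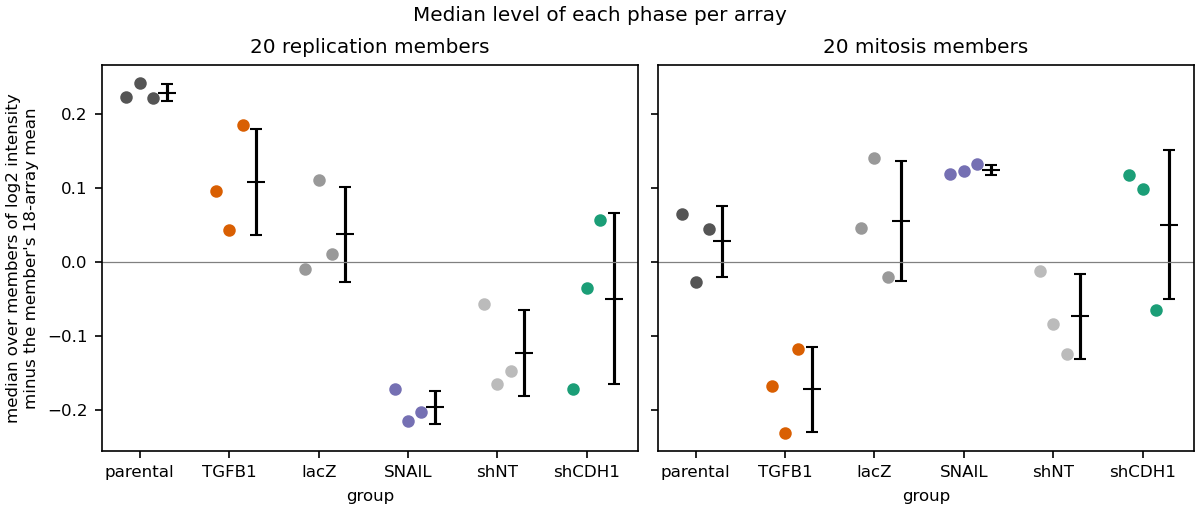
Median over the 20 replication members (left) and the 20 mitosis members (right) of log2 intensity minus each member's 18-array mean. Points are arrays, and the bar beside them is the group mean ± SD of 3 arrays. The 3 SNAIL arrays lie between -0.21 and -0.17 for replication and between 0.12 and 0.13 for mitosis.

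TGFB1-treated cells had less mRNA of the mitosis genes KIF11, KIF20A, CCNB1 and TPX2 and of the origin licensing factor CDC6, and more of CCNE1. Of the 40 members 14 were called, where 31.2% of all genes were: 1 replication member rose and 4 fell, and 2 mitosis members rose and 7 fell. The share of members called was near that of all genes in this setting. Among genes brighter than the median probe, 16 of 39 members were called, against 46% of such genes. With the mean of all probes of a gene 21 of 40 were called, against 29.9% of all genes. In that setting 1 replication member rose and 8 fell, and 3 mitosis members rose and 9 fell. Called lower were 11 of the 40, against 15.7% of all genes, and called higher 3, against 15.5%. The median log2 difference was -0.17 over replication and -0.21 over mitosis members, against 0.00 over all genes.

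CDC6, which brings the helicase to the origin, read 8.67, 8.49 and 8.33 on the parental arrays and 7.59, 7.52 and 7.66 on the TGFB1 arrays. The groups did not overlap, and the level fell 1.87-fold (log2 -0.91 ± 0.14 SE, adjusted p = 7.27e-06). The helicase subunit MCM2 fell 1.46-fold, RFC4 of the clamp loader 1.39-fold and the initiation factor MCM10 1.25-fold (adjusted p = 0.00693, 0.000155 and 0.0456). MCM10 was the weakest of these, and its call was lost in 12 of 21 alternative settings. By their brightest probes the other helicase subunits were not called, with log2 differences from -0.28 for MCM5 to 0.08 for MCM7. A dimmer probe each of MCM3, MCM4 and MCM7 fell with TGFB1, and these values are given with the probes below.

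CCNE1, the cyclin E that pairs with CDK2 at the start of S phase, went the other way. Its levels were 9.42, 9.33 and 9.25 in parental and 10.21, 10.42 and 10.18 in TGFB1 arrays, a rise of 1.91-fold (log2 0.94 ± 0.11 SE, adjusted p = 1.00e-07). The TGFB1 arrays were above all 15 others for this gene. E2F1, at a log2 difference of 0.04, and CCNE2, at -0.25 ± 0.17 SE, were not called.

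KIF11 and KIF20A had the largest falls among mitosis members, while the third kinesin, CENPE, was not called. KIF11, the motor that pushes spindle poles apart, read 10.91, 10.99 and 10.93 in parental and 10.26, 10.18 and 10.23 in TGFB1 arrays and fell 1.65-fold (log2 -0.72 ± 0.09 SE, adjusted p = 7.08e-07). KIF20A, a kinesin of the late spindle and cytokinesis, read 12.15, 12.05 and 11.88 against 11.41, 11.33 and 11.31 and fell 1.60-fold (adjusted p = 1.52e-06). For both genes the 3 TGFB1 arrays were the lowest of all 18. CCNB1, the cyclin of CDK1, fell 1.51-fold, and TPX2, which activates AURKA on the spindle, fell 1.48-fold (adjusted p = 3.95e-05 and 0.000110). AURKB, TOP2A and CDK1 fell less, with log2 differences of -0.33, -0.28 and -0.30.

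BIRC5 (survivin, the partner of AURKB) and PLK1 rose, apart from the other mitosis genes. BIRC5 went from 10.13, 10.12 and 9.97 to 10.61, 10.78 and 10.48, or 1.47-fold (adjusted p = 0.000679), and PLK1 from 9.41, 9.45 and 9.03 to 9.70, 9.78 and 9.73, or 1.36-fold (adjusted p = 0.0265). MKI67 was 0.32 lower on the log2 scale and missed the threshold (adjusted p = 0.0511).

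With no scaling between arrays, when the median of all genes moved to -0.22, the split of 3 higher and 11 lower became 0 higher and 20 lower, with phase medians of -0.43 and -0.53. CCNE1 then read 0.53 higher, BIRC5 0.16 and PLK1 0.06, without a call (adjusted p = 0.0599, 0.612 and 0.879). The call of MCM2 was lost without parental replicate 1 (adjusted p = 0.0521), and leaving out 1 array also took the calls of MCM10 (without any of 5 arrays, up to 0.193), TOP2A (parental 3 or TGFB1 3, up to 0.0944), CDK1 (parental 2, TGFB1 1 or TGFB1 2, up to 0.339) and PLK1 (parental 3 or any TGFB1 array, up to 0.179). TGFB1 arrays 1 and 2 had the lowest raw medians of the series, and with array 3 alone 9 members were called, 1 higher and 2 lower in replication and 0 higher and 6 lower in mitosis. CDC6, KIF11, KIF20A and TPX2 stayed lower in all 21 alternatives. The replication result also turned on the control: against lacZ cells, 3 replication members were higher and 1 lower, and against shNT cells 8 were higher and 2 lower, while mitosis members split 0 to 9 and 3 to 7.

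**Figure D3:**
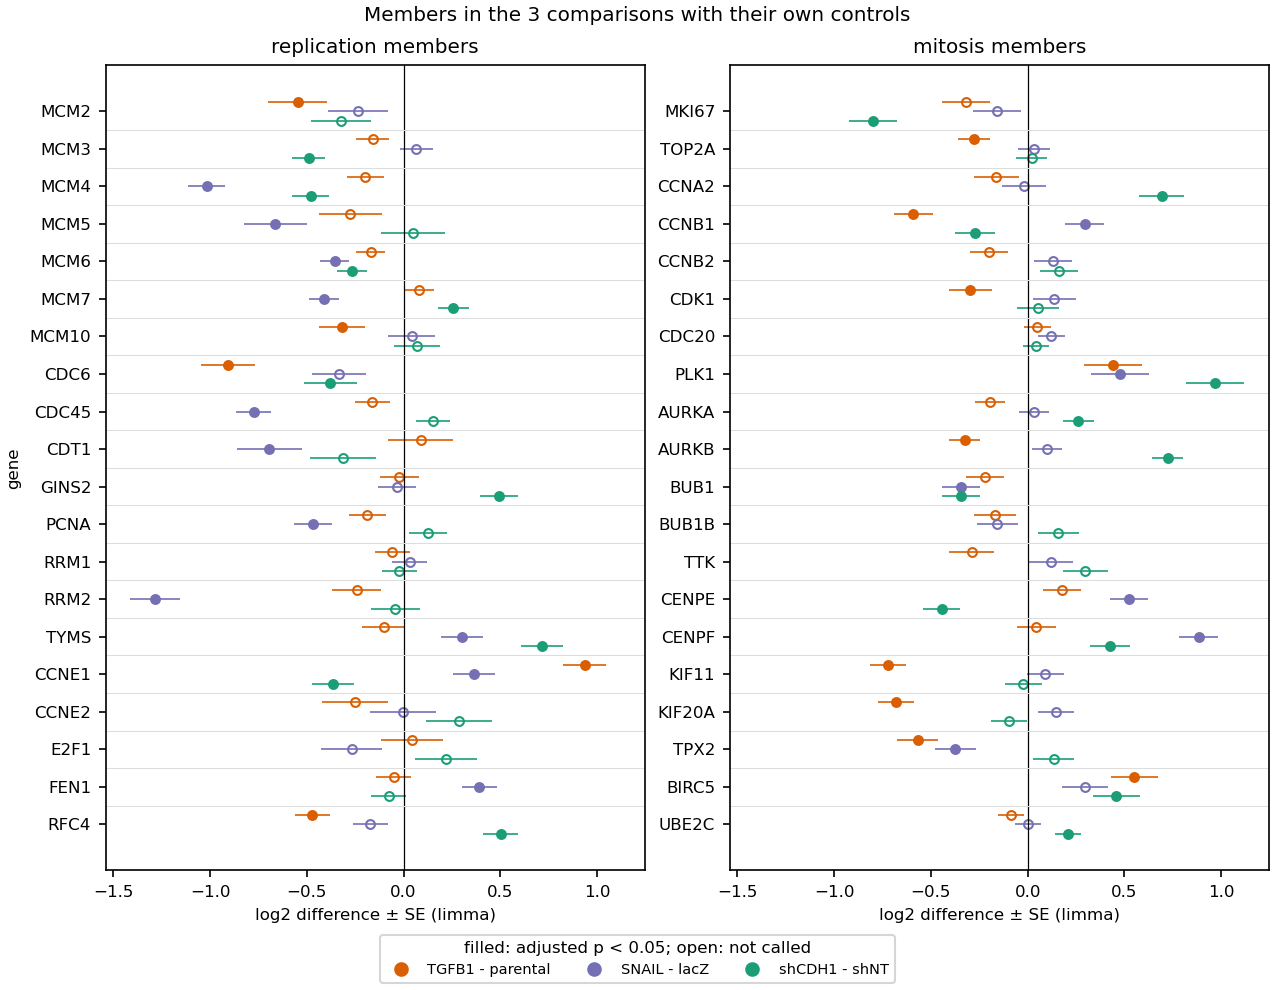
Log2 difference ± SE (limma) of each member in TGFB1 against parental (orange), SNAIL against lacZ (purple) and shCDH1 against shNT (green) cells, 3 arrays a group; filled points have an adjusted p below 0.05. RRM2 at -1.28 in SNAIL cells lies farthest left, and PLK1 is filled and above 0 in all 3 comparisons.

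SNAIL cells had less mRNA of 8 of the 20 replication members than lacZ cells, RRM2, MCM4 and CDC45 among them, while 9 were not called. Of the 40 members 17 were called, where 36.6% of all genes were: 3 replication members rose and 8 fell, and 4 mitosis members rose and 2 fell. Of all genes 19.6% were called higher and 17% lower, so the 4 of 20 mitosis members called higher were near the background. Among genes brighter than the median probe, 19 of 39 members were called, against 53% of such genes. The median log2 difference was -0.25 over replication members, 0.11 over mitosis members and 0.01 over all genes.

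RRM2, the subunit that sets the activity of ribonucleotide reductase, read 11.71, 11.87 and 11.45 in lacZ and 10.30, 10.36 and 10.51 in SNAIL arrays. It fell 2.43-fold (log2 -1.28 ± 0.13 SE, adjusted p = 4.01e-09), by the brightest probes the largest change of any member in the 3 routes. RRM1, the other subunit, was not called, at 0.03. MCM4 went from 12.35, 12.38 and 12.23 to 11.35, 11.24 and 11.32, a fall of 2.02-fold (adjusted p = 1.37e-09). MCM5, MCM6 and MCM7 also fell, by 0.66, 0.36 and 0.41 on the log2 scale, so 4 of the 6 helicase subunits were lower, while MCM3 (0.07) and MCM2 (-0.24) were not called.

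CDC45, the helicase activator, read 11.29, 11.36 and 11.21 in lacZ and 10.57, 10.51 and 10.46 in SNAIL arrays and fell 1.71-fold (adjusted p = 4.23e-08). The SNAIL arrays were the lowest of all 18 for this gene. CDT1 fell 1.62-fold, with wide spread in lacZ arrays (10.43, 10.55 and 9.91), and PCNA fell by 0.47 on the log2 scale. The nuclease FEN1, TYMS and CCNE1 rose, by 0.39, 0.30 and 0.36. MCM4, MCM5, MCM7, CDC45, CDT1, PCNA and RRM2 stayed lower in all 17 alternatives.

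CENPF, a kinetochore protein that accumulates in G2, was the 1 mitosis member of 6 called that kept its call in all alternatives. Its levels were 10.76, 10.88 and 10.66 in lacZ and 11.77, 11.63 and 11.54 in SNAIL arrays, 1.84-fold higher (log2 0.88 ± 0.10 SE, adjusted p = 5.75e-08). The kinetochore motor CENPE rose 1.44-fold, from 11.13, 11.19 and 11.03 to 11.67, 11.65 and 11.60. Both genes had their 3 highest arrays in the SNAIL group. PLK1 rose 1.39-fold and CCNB1 by 0.29 on the log2 scale, and TPX2 and the checkpoint kinase BUB1 fell 1.30-fold and 1.27-fold. With no scaling between arrays, the 7 higher and 10 lower became 1 higher and 7 lower: CENPF stayed higher in that setting. Leaving out 1 array took the calls of PLK1 (lacZ 3, SNAIL 1 or SNAIL 2, adjusted p up to 0.151), TYMS and CCNB1 (lacZ 1, lacZ 3, SNAIL 1 or SNAIL 2, up to 0.147 and 0.0992), CCNE1 (SNAIL 2, 0.0563), BUB1 (lacZ 2, 0.0643) and TPX2 (SNAIL 1, 0.0516).

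The CDH1 hairpin gave a mixed picture, with Aurora and Polo kinases higher and the phases not set apart. Of the 40 members 20 were called, where 33.9% of all genes were: 4 replication members rose and 5 fell, and 7 mitosis members rose and 4 fell. Of all genes 17.9% were called higher and 16% lower. Among genes brighter than the median probe, 21 of 39 members were called, against 51.6% of such genes, a share near that of the members. Median log2 differences were 0.01 and 0.15, against 0.01 over all genes. With no scaling between arrays 8 were higher and 2 lower, when the median of all genes was 0.06.

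TYMS read 11.88, 12.14 and 11.68 in shNT and 12.66, 12.38 and 12.81 in shCDH1 arrays and rose 1.64-fold (log2 0.71 ± 0.11 SE, adjusted p = 6.93e-06). RFC4 and GINS2, a GINS subunit, rose 1.42-fold and 1.41-fold, and MCM7 by 0.26. MCM3 and MCM4 fell 1.40-fold and 1.39-fold, and MCM6, CDC6 and CCNE1 by 0.27, 0.38 and 0.36. The helicase subunits, which work as a ring of 6, thus split into 1 higher, 3 lower and 2 not called.

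The kinases PLK1, AURKA and AURKB were higher, while the checkpoint kinase BUB1 was lower and BUB1B, TTK and CDK1 were not called. PLK1 went from 9.15, 9.06 and 8.65 to 9.94, 9.84 and 9.98, a rise of 1.96-fold (log2 0.97 ± 0.15 SE, adjusted p = 8.52e-06). AURKB went from 12.43, 12.26 and 12.39 to 12.99, 13.05 and 13.21, a rise of 1.65-fold (adjusted p = 2.63e-08), and the shCDH1 arrays were above all 15 others. AURKA rose by 0.26 on the log2 scale. CCNA2, the cyclin of S phase and G2, rose 1.62-fold, BIRC5 1.37-fold, CENPF by 0.43 and UBE2C, which loads ubiquitin for the APC/C, by 0.21.

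MKI67, the gene of the Ki-67 antigen, moved against these genes. It read 8.73, 8.29 and 8.64 in shNT and 7.69, 7.80 and 7.77 in shCDH1 arrays and fell 1.74-fold (adjusted p = 7.32e-06). The shNT arrays were the outlying group here: parental arrays read 7.97, 7.82 and 7.82, near the shCDH1 values. CENPE, BUB1 and CCNB1 also fell, by 0.44, 0.35 and 0.27. MCM3, GINS2, TYMS, RFC4, CCNA2, PLK1 and AURKB kept their direction and call in all alternatives run. Leaving out 1 array took the calls of MCM7 (shCDH1 3 or shNT 3, adjusted p up to 0.0782), AURKA (shCDH1 1 or shNT 3, 0.0729), UBE2C (shNT 1 or shNT 2, 0.0843), CCNE1 (shNT 1, 0.0648), CDC6 (shCDH1 1 or 2, shNT 1 or 2, 0.234) and CCNB1 (shCDH1 1 or 3, shNT 1 or 2, 0.268).

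**Figure D4:**
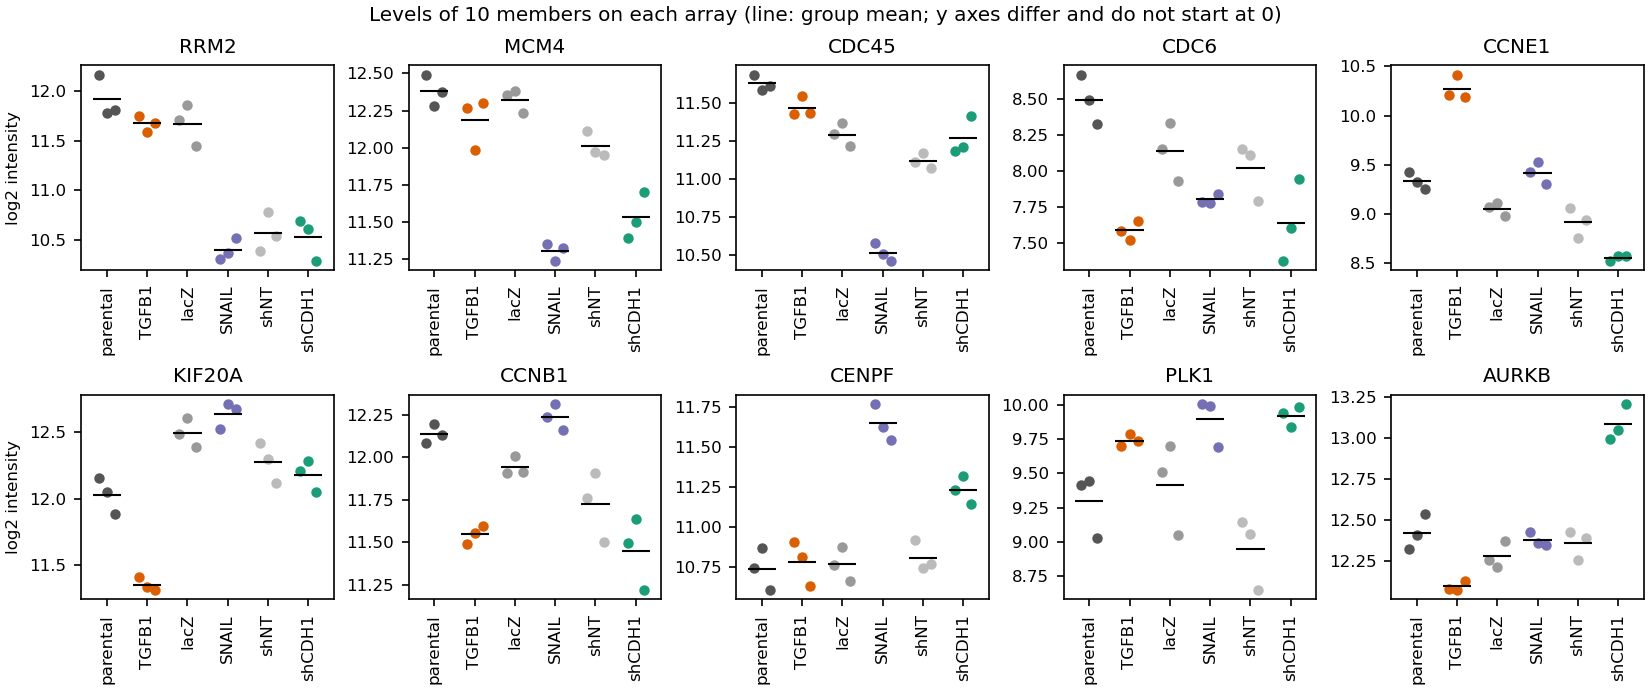
Log2 intensity of 10 members on each array, by group; points are arrays and lines are group means of 3. Each panel has its own y axis, which does not start at 0. RRM2 in shNT arrays (10.39 to 10.78) lies with SNAIL and shCDH1, and AURKB is highest in shCDH1 arrays (12.99 to 13.21).

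Both control virus groups had replication members called lower than in parental cells, but the lacZ calls did not hold in every alternative. In lacZ against parental cells 7 members were called, where 13.8% of all genes were: 6 replication members fell, 0 rose, and 1 mitosis member rose. Of all genes 7.04% were called higher and 6.72% lower there. In shNT against parental cells 19 were called, where 20.8% of all genes were: 15 replication members fell, 0 rose, and 1 mitosis member rose and 3 fell. Both comparisons share the parental arrays. In lacZ cells 0 of these calls were kept in all alternatives, and median centring left 2 replication members lower. In shNT cells 5 of the 15 replication calls were kept in all, those of CDC45, RRM2, TYMS, FEN1 and RFC4. Among genes brighter than the median probe, 8 of 39 members were called in lacZ cells, against 22% of such genes. In shNT cells it was 20 of 39, against 33.6%, with 14 replication members lower. For the replication members in shNT cells, 15 of 20 called lower stood against 10.6% of all genes called lower and 10.2% called higher, and the median log2 difference was -0.39, against -0.07 over mitosis members and 0.00 over all genes.

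RRM2 was 12.17, 11.78 and 11.81 in parental and 10.39, 10.78 and 10.54 in shNT arrays, 2.55-fold lower (log2 -1.35 ± 0.13 SE, adjusted p = 1.84e-08). Its level in shCDH1 arrays, 10.69, 10.61 and 10.28, overlapped shNT, so the hairpin against CDH1 showed no further difference (log2 -0.04 ± 0.13 SE). FEN1, CDT1 and TYMS fell 1.53-fold, 1.53-fold and 1.46-fold in shNT cells, and CCNE2 1.59-fold at levels near the array-wide median. CCNA2 fell 1.63-fold, from 12.83, 12.79 and 12.67 to 12.01, 12.36 and 11.81, and in shCDH1 arrays it stood at 12.92, 12.84 and 12.50, overlapping parental. The rise of CCNA2 and TYMS with the CDH1 hairpin was thus measured from a control below parental cells.

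In lacZ cells, MCM5 fell by 0.58 on the log2 scale, MCM10 1.38-fold, FEN1 1.35-fold, RFC4 1.28-fold, CDC45 1.26-fold and GINS2 by 0.30 on the log2 scale. KIF20A rose 1.38-fold. Leaving out 1 array took the calls of MCM5 (parental 1, lacZ 1 or lacZ 2, adjusted p up to 0.107), GINS2 (any parental array or lacZ 1, 0.339) and RFC4 (lacZ 1, 0.0642). In shNT cells it took the calls of MCM5 (parental 1 or shNT 2, up to 0.201), MCM6 (parental 1, shNT 1 or shNT 3, 0.0925), CDC6 (parental 1 or shNT 3, 0.111), CDT1 (parental 1, 0.123), GINS2 (any array but shNT 1, 0.150), PCNA (any array but shNT 2, 0.206), CCNE2 (parental 2, 0.0533), CCNB1 (shNT 3, 0.0521) and BUB1B (parental 2, parental 3 or shNT 3, 0.189). Without parental replicate 1, the 15 replication members called lower in shNT cells became 9, and with any other array left out they were 11 to 14. With no scaling between arrays 0 members were called in lacZ cells and 12 in shNT cells, 0 higher and 12 lower, when the median of all genes was -0.01 and -0.10.

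**Figure D5:**
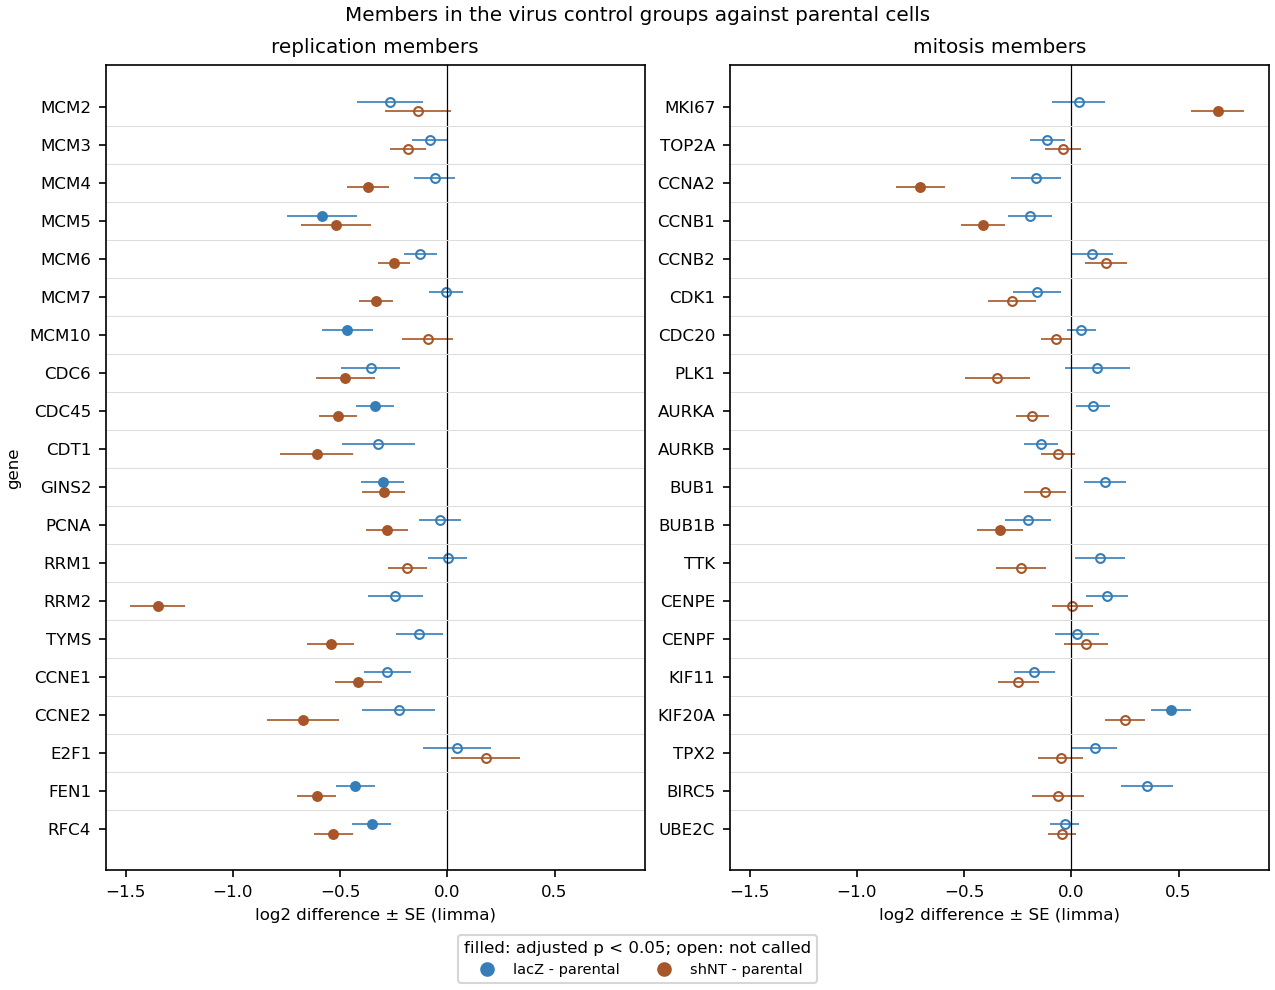
Log2 difference ± SE (limma) of each member in lacZ against parental (blue) and shNT against parental (brown) cells, 3 arrays a group; filled points have an adjusted p below 0.05. Of the 20 replication members 6 are filled for lacZ and 15 for shNT, all below 0.

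The routes were then set against each other, each change taken from its own control. TGFB1 and SNAIL effects differed in 15 members, where 29.3% of all genes differed, TGFB1 and shCDH1 effects in 18 (30.1%) and SNAIL and shCDH1 effects in 19 (31.9%). Among genes brighter than the median probe the counts were 17, 20 and 19 of 39 members, against 43%, 45.9% and 47.4% of such genes. The shares of members were near those of other bright genes. CCNB1 fell with TGFB1 and rose with SNAIL, a log2 difference between effects of -0.89 ± 0.14 SE (adjusted p = 1.98e-05). RRM2 was lower in the SNAIL than in the TGFB1 comparison by 1.04 ± 0.18 SE (adjusted p = 4.97e-05), a call lost with no scaling between arrays (adjusted p = 0.140). CCNE1, higher with TGFB1 and lower with shCDH1, differed by 1.30 ± 0.15 SE (adjusted p = 1.96e-07), and AURKB, with the opposite signs, by -1.05 ± 0.11 SE (adjusted p = 2.78e-08).

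PLK1 was the only member called higher in all 3 routes, and 0 members were called lower in all 3. For PLK1 only the shCDH1 call held in every alternative, and the TGFB1 and SNAIL calls were each lost with 1 array left out or with no scaling between arrays. MCM7, RFC4 and CCNE1 in replication, and CCNB1, AURKB and CENPE in mitosis, were called in opposite directions in different routes. The shCDH1 calls of MCM7, CCNE1 and CCNB1 were kept in only 11, 11 and 7 of 17 alternatives, and the SNAIL call of CCNB1 in 9. MCM7, RFC4, CCNE1 and CCNB1 were also called lower in shNT, the control of shCDH1, than in parental cells. RRM1, CCNE2, E2F1, CCNB2, CDC20, BUB1B and TTK were called in none of the 3. MCM4, MCM6 and BUB1 were lower in SNAIL and shCDH1 cells, CDC6 in TGFB1 and shCDH1 cells and TPX2 in TGFB1 and SNAIL cells.

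Other genes of the same machines were read beside the members. Of 55 other mitosis genes, 36 fell and 2 rose with TGFB1, or 69.1% called against 31.2% of all genes, with a median log2 difference of -0.37 against 0.00 over all genes. CDC25B and CDC25C, phosphatases that activate CDK1, fell 2.31-fold and 2.04-fold, and the chromosome kinesin KIF4A 2.00-fold. The same list split 8 to 8 in SNAIL cells (29.1% called, under the 36.6% of all genes) and 11 higher to 8 lower in shCDH1 cells (34.5%, near the 33.9% of all genes). Of 41 other replication genes, 3 rose and 13 fell with TGFB1, 3 rose and 18 fell with SNAIL, and 13 rose and 5 fell with shCDH1, while 2 rose and 20 fell in shNT against parental cells. The shares called were 39%, 51.2%, 43.9% and 53.7%, against 31.2%, 36.6%, 33.9% and 20.8% of all genes. Of genes brighter than the median probe, 46%, 53%, 51.6% and 33.6% were called in these comparisons. Only for shNT was the share of the other replication genes above that. The other lists were not counted among such bright genes alone. ORC5, RFC2 and POLE2 fell 2.18-fold, 1.96-fold and 1.87-fold in SNAIL cells.

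POLA1, the catalytic subunit of the priming polymerase, was an exception in size. It read 10.21, 9.85 and 9.81 in parental and 11.68, 11.53 and 11.30 in TGFB1 arrays (2.92-fold higher), and 9.18, 8.98 and 9.10 in shNT and 11.62, 11.52 and 11.59 in shCDH1 arrays (5.62-fold higher). LIG1, the ligase that joins lagging-strand fragments, fell 2.17-fold with TGFB1.

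The brakes on the cycle differed between routes. CDKN1A, the p21 inhibitor of cyclin-dependent kinases, was 10.01, 9.86 and 9.75 in parental and 12.79, 12.60 and 12.65 in TGFB1 arrays, 6.98-fold higher (log2 2.80 ± 0.12 SE, adjusted p = 2.04e-16). It fell 1.37-fold in SNAIL and 2.68-fold in shCDH1 cells, so the calls had opposite directions. CDKN2B (p15), a known TGF-beta target, rose by 0.58 on the log2 scale with TGFB1, rose 1.94-fold with shCDH1 and fell 1.56-fold with SNAIL. That fall was measured from lacZ cells, where CDKN2B was 1.89-fold higher than in parental cells, and the lacZ and TGFB1 values share the parental arrays. CDKN1C (p57), another inhibitor, rose 2.75-fold with SNAIL and 1.77-fold with shCDH1, while CDKN1B (p27) fell 1.65-fold with TGFB1. Among the other p53 target genes GADD45A rose 3.60-fold and GDF15 fell 7.08-fold with TGFB1, and in all 3 rose and 2 fell of 13 (38.5% called, against 31.2% of all genes).

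E2F7, a repressor of E2F target genes, rose 4.27-fold with TGFB1 and E2F2 fell 2.51-fold. Both were also called in lacZ against parental cells, which shares the parental arrays, 2.07-fold higher and 2.75-fold lower. MYC rose 2.11-fold with TGFB1 and 2.23-fold with shCDH1, and was not called in SNAIL cells (log2 -0.03). FOXM1, the activator of the mitotic wave, fell 1.29-fold with TGFB1 (adjusted p = 0.0212) and was not called with SNAIL (-0.22) or shCDH1 (0.02), and MYBL2 was not called in any of the 3.

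Several members had more than 1 probe, and the size of a change depended on which was read. Of the 40, 26 had 1 probe and 14 had several, and the text uses the brightest. No member had probes called in opposite directions in any of the 5 comparisons. Both probes were called in only 3, 5, 8, 0 and 4 of 16 pairs for TGFB1, SNAIL, shCDH1, lacZ and shNT, so few pairs could have differed. Dimmer probes gave the larger change in 11 of 16 cases for TGFB1, 9 of 16 for SNAIL and 10 of 16 for shCDH1. For MCM7 the brightest probe, at a mean level of 12.93, gave 0.08, -0.41 and 0.26 for the 3 routes, and a probe at 9.42 gave -1.04, -1.47 and 1.31. A dimmer MCM3 probe fell by 0.85 with TGFB1 where the brightest was not called, and MCM4 did likewise, by 0.78, so more helicase subunits were lower with TGFB1 when these probes were read.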

How the data were processed

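Total RNA from HCC827 cells was labelled with biotin and hybridised to Illumina bead arrays, per the labels' protocols. The deposited table of the authors holds linear intensity values per probe for 18 arrays. The scale is from the values: raw medians differed between arrays (152.1 to 235.8), so no normalization between arrays is visible, and the software is not given in the sources used here. Of 47323 probes, 2 with a value of 0 were left out. Intensities were background-corrected (normexp, offset 50), quantile-normalized and put on a log2 scale, and the brightest of the probes with 1 gene symbol in the platform annotation stood for each gene, which left 20046 genes. limma 3.58.1 in R 4.3.3 fitted 6 group means (12 residual degrees of freedom, trended eBayes). Tests were two-sided, with Benjamini-Hochberg adjustment over all genes.

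The members and lists were chosen with earlier results of these data known. Per comparison the text names up to 5 called members of each phase with the largest change, by rule, and others by role. From the other lists it names up to 3 called genes each and a fixed set of regulators. Title numbers name the replicates, and nothing says that they came from separate cultures. The sample descriptions number them 1, 1 and 2 in every group, so title replicates 1 and 2 share a description number. The 3 arrays of a group may thus be fewer than 3 separate units. The p-values then measure only the spread between these samples, which may be technical. Alternatives covered background, scaling, probe choice, filters, the variance trend, blocks, controls and each array left out.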

Additional observations from a re-analysis of the deposited data

Results flagged for a closer look

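The difference between routes itself passed the test for the following members, each change taken from its own control, as a log2 difference from limma's contrast of effects. The causes were not tested.

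TGFB1 minus SNAIL gave RRM2 1.04, MCM4 0.82, CDT1 0.78 and CDC45 0.61 among replication members, which fell with SNAIL and were not called with TGFB1. Among mitosis members it gave CCNB1 -0.89, CENPF -0.84, KIF20A -0.82 and KIF11 -0.81, with the lower value in TGFB1 cells each time.

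TGFB1 minus shCDH1 gave CCNE1 1.30, RFC4 -0.97, TYMS -0.82 and CDC6 -0.53 among replication members. For mitosis members it gave AURKB -1.05, CCNA2 -0.85, TPX2 -0.70 and KIF11 -0.70.

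SNAIL minus shCDH1 gave RRM2 -1.24, CDC45 -0.93, CCNE1 0.73 and MCM5 -0.71 among replication members, and CENPE 0.97, CCNA2 -0.71, MKI67 0.64 and AURKB -0.62 among mitosis members. The shNT control was called below parental cells for RRM2, CDC45, MCM5, CDC6, CCNE1, CCNA2, TYMS and RFC4 and above them for MKI67, and each of these differences rests on it.

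Leaving out 1 array took the call from CDT1 in TGFB1 minus SNAIL (parental 3, lacZ 2 or SNAIL 3, adjusted p up to 0.0529), CDC6 in TGFB1 minus shCDH1 (7 arrays, up to 0.140) and MCM5 in SNAIL minus shCDH1 (lacZ 3, shCDH1 3, shNT 2 or SNAIL 2, up to 0.0738). With no scaling between arrays, RRM2, MCM4, CDT1 and CDC45 lost the call in TGFB1 minus SNAIL, and CCNE1, CENPE and MKI67 in SNAIL minus shCDH1.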

How the results depend on the processing

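The counts of called members kept within 1.5 times of the reported value except as follows, and the causes were not tested. At the edge of that limit, the mean of all probes of a gene gave 21 for TGFB1 against 14. Replication members lower were then 8 against 4. With median centring, 3 were called in lacZ against parental cells and 9 in TGFB1 minus SNAIL. With a floor and log2 alone, 22 were called for TGFB1 (0 higher), 8 for SNAIL, 7 for shCDH1, 0 for lacZ, 12 for shNT, 5 for TGFB1 minus SNAIL and 7 for SNAIL minus shCDH1, and the median of all genes for TGFB1 moved to -0.28. With no normalization between arrays, the counts were 8 for SNAIL, 10 for shCDH1, 0 for lacZ, 12 for shNT, 5 for TGFB1 minus SNAIL and 8 for SNAIL minus shCDH1. TGFB1 array 3 alone, an alternative chosen after seeing the data, gave 9. Leaving out each array in turn gave 11 to 15 for TGFB1, 13 to 18 for SNAIL, 17 to 20 for shCDH1, 4 to 7 for lacZ (4 without lacZ replicate 1), 14 to 19 for shNT, 13 to 16 for TGFB1 minus SNAIL, 14 to 21 for TGFB1 minus shCDH1 and 17 to 20 for SNAIL minus shCDH1. With the replicate block the counts were 16, 18, 21, 8 and 21 for TGFB1, SNAIL, shCDH1, lacZ and shNT, and 17, 21 and 20 for the differences. Same-numbered arrays of 2 compared groups correlated weakly once group means were removed, at -0.128 to 0.222. In most cases this was above the best pair with another number. In each comparison at least 1 same-numbered pair correlated at 0.1 or less, and these values do not settle whether the numbers mark a pairing. Averaging arrays with the same description number gave 11, 15, 17, 6 and 15. Among the members and the genes the naming rule covers, a value called in either setting changed sign in these cases. The mean of all probes put MCM7 at -0.38 with TGFB1, and the floor put CDKN2B at -0.0042 in shNT cells. Against lacZ cells, TGFB1 gave MCM10 0.15, GINS2 0.28, FEN1 0.38, CDKN2B -0.34, E2F2 0.13 and POLE2 0.15. Against shNT cells it gave CDC45 0.35, GINS2 0.28, RRM2 1.11, TYMS 0.44, FEN1 0.56, RFC4 0.059, CCNA2 0.54, ORC5 0.35, POLE2 0.45, PBK 0.031, RFC3 1.09 and FBXO5 0.83. Against the mean of the 3 control groups it gave RRM2 0.29, FEN1 0.30, POLE2 0.093 and FBXO5 0.037.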
